A study of Mus musculus with 7 samples.

Results

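Amino acid and glucose transporters were examined in mouse lung by their gene symbols. The set took every gene whose symbol starts with Slc1a, Slc2a, Slc3a, Slc5a, Slc6a, Slc7a, Slc36a, Slc38a or Slc43a followed by a number, and left out pseudogenes. Of 88 matching symbols 1 was a pseudogene (Slc2a4rg-ps), so the set held 87 of the 22447 genes in the files. Of these, 86 encode carriers or their partner subunits, and Slc7a6os is a neighbouring gene named for lying opposite Slc7a6 and is no carrier. RNA was sequenced from 3 lung tumors labelled with EZH2 overexpression (OE tumors 1 to 3), 2 normal lungs labelled with EZH2 overexpression (OE normal 1 and 2) and 2 wild-type normal lungs (WT 1 and 2). EZH2 methylates histone H3 as the enzyme of the Polycomb complex PRC2. Strain, age and the promoter driving EZH2 were not given in the sources used here. Growth notes mention cultured tumor nodules while the source is lung tissue, and which of them gave the RNA is not stated.

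Members of the Slc2a family (GLUT proteins) let sugars pass down their gradient, and Slc5a members (such as the SGLT proteins) couple sugars, inositol or vitamins to sodium. Slc1a and Slc38a members carry glutamate, glutamine and other small amino acids with sodium. Slc6a members use sodium and chloride to take up transmitters, osmolytes and neutral or cationic amino acids. Some Slc36a members, such as Slc36a1, use protons. Most Slc7a members exchange amino acids as light chains that are bound by a disulfide bridge to a heavy chain of the Slc3a family, which brings them to the plasma membrane. Several carriers sit on lysosomes, where the amino acids they move are sensed by the kinase complex mTORC1. In lung, such carriers supply alveolar cells with fuel and clear amino acids from the fluid that lines the airways.

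Values are FPKM, fragments scaled for transcript length and for the number mapped, so that levels of different genes can be set side by side. Genes at 1 FPKM or more numbered 12028 to 12625 per tumor, against 13544 and 13567 per OE normal lung and 13203 and 13252 per WT lung. By the sex-linked genes tumor 1, OE normal 1 and both WT lungs were male, and tumors 2 and 3 and OE normal 2 were female. Sex and tumor cannot be told apart among the tumors. Tumors 2 and 3 lay close together. An expression minimum of 1 FPKM in 2 or more of the 7 libraries was passed by 52 members. Over these the median absolute difference in log2(FPKM + 1) was 0.13 between tumors 2 and 3, against 0.62 and 0.46 between tumor 1 and tumors 2 and 3. It was 0.25 for the pair of OE normal lungs and 0.16 for the pair of WT lungs. Over all 14057 genes tested it was 0.10 between tumors 2 and 3 and 0.40 between tumor 1 and either of them. The labels do not say that replicates came from separate animals, so p-values speak only of the spread among these libraries, which may be technical.

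Transporter mRNA in the tumors was made up differently from that in normal lung. In the tumors the 6 highest members by mean FPKM were the glutamine carrier Slc38a2 (60.7 ± 18.3), the glucose carrier Slc2a3 (59.7 ± 67.1), the glutamine exchanger Slc1a5 (59.5 ± 22.1), the heavy chain Slc3a2 (56.7 ± 16.5), the taurine carrier Slc6a6 (34.6 ± 8.71) and the light chain Slc7a5 (24.1 ± 13.7; SD, n = 3 tumors). The spreads of the first 4 overlap, so their order in the tumors is not resolved. In OE normal lung the order was Slc43a3 (140.4 ± 7.32), Slc3a2 (85.9 ± 6.57), Slc1a5 (69.2 ± 10.8), Slc6a6 (46.5 ± 11.7), Slc38a2 (38.1 ± 6.76) and the poorly characterized Slc38a10 (29.1 ± 2.41; SD, n = 2). In WT lung Slc43a3 (192 ± 13.4) and Slc3a2 (103 ± 14.4) again came first, followed by Slc1a5 (63.2 ± 3.66), Slc38a2 (45.2 ± 2.58), Slc6a6 (36.5 ± 0.516) and Slc38a10 (25.3 ± 1.82; SD, n = 2). Summed over all 87 members, FPKM was 602, 480 and 495 in tumors 1, 2 and 3, against 717 and 690 in OE normal lung and 762 and 776 in WT lung.

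**Figure D1:**
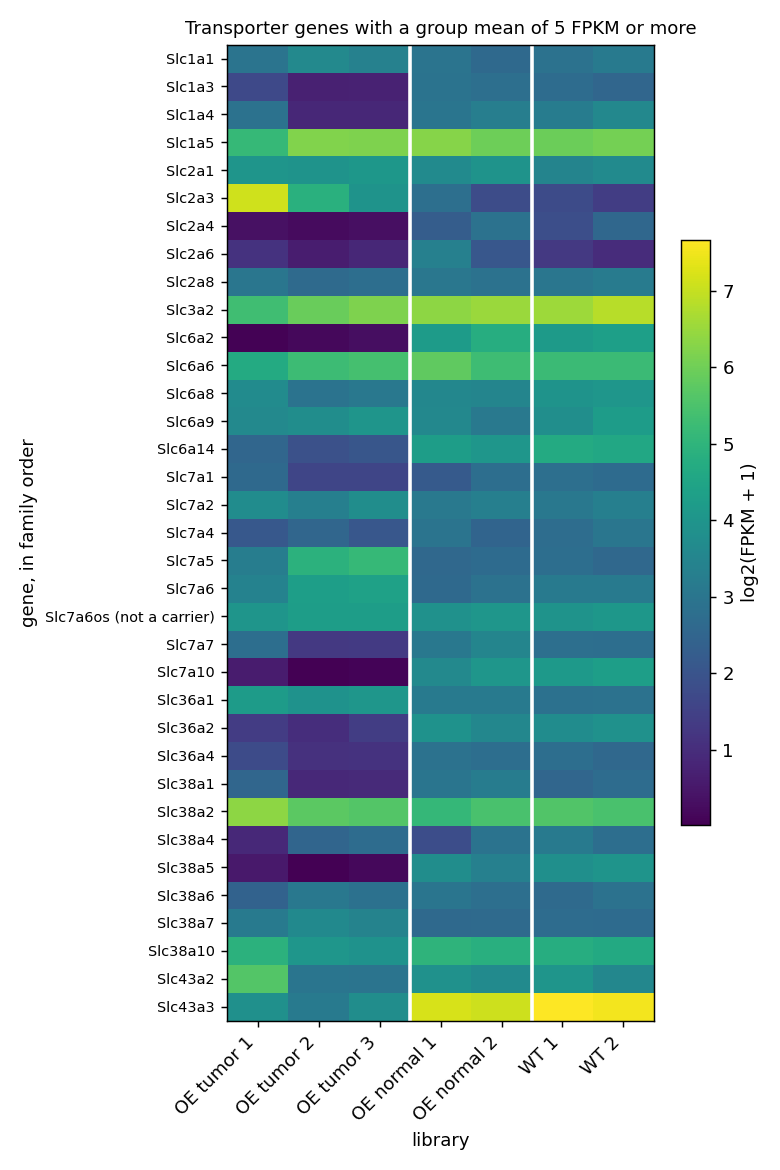
Level of the 35 transporter genes whose highest group mean is at least 5 FPKM, one row per gene in family order and one column per library, with colour giving log2(FPKM + 1). Brighter colours mark higher levels. Slc43a3 is bright in the 4 normal lungs, between 135 and 202 FPKM, and darker in the 3 tumors, between 8.05 and 13.4 FPKM. Slc2a3 is brightest in tumor 1.

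Differences were tested with limma on log2(FPKM + 1) over all 14057 genes, with Benjamini-Hochberg adjusted p under 0.05 as the threshold for a call. Against OE normal lung, 5 of the 52 members tested were higher in the tumors and 18 were lower. That is 44.2% called, where 38.1% of all genes tested were called, and 9.62% higher and 34.6% lower, where 13.1% of all genes were higher and 24.9% were lower. Against WT lung 5 were higher and 16 were lower, or 40.4% called, where 38.2% of all genes were called. That is 9.62% higher and 30.8% lower, where 15.0% of all genes were higher and 23.2% were lower. The median log2 difference of the members was -0.43 against OE normal lung and -0.32 against WT lung, and that of all genes was -0.11 and -0.06 in the same comparisons. The tumor comparisons share the tumor libraries, and 4 members were higher and 14 lower in both. Another 35 members did not reach the minimum, so these counts do not describe the whole set. The counts leaned on single libraries. Against OE normal lung 11 members were higher and 26 lower without tumor 1, and 1 to 3 were higher without any 1 of the other 6 libraries. Against WT lung the same omissions gave 10 higher and 25 lower without tumor 1, 1 to 3 higher without any 1 of the other 6, and 9 and 10 lower without WT 1 and without WT 2. Scaling of the libraries moved the split too. By median-of-ratios scaling 8 were higher and 18 lower than in OE normal lung, by quantile normalization 9 and 15, and by rescaling to TPM 4 and 19, while the median of all genes moved to 0.05, 0.13 and -0.33 under these settings. Against WT lung the same settings gave 4 higher and 15 lower, 7 and 13, and 3 and 16, with a median of all genes of 0.04, 0.11 and -0.16.

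No member passed limma's test between OE normal and WT lung. None of the 14057 genes passed there either (0.0% called), and 2 members, Slc2a6 and Slc6a9, were among 1208 genes with an unadjusted p under 0.05. The count over all genes depended on tumor 1, which shares in the estimate of the spread. Without it 214 genes were higher and 88 lower in OE normal than in WT lung, none of them a member. The median SE of a member's log2 difference was 0.26 in this comparison, against 0.23 in the tumor comparisons. Slc2a6, an intracellular hexose carrier named GLUT6, had 9.10 and 3.24 FPKM in OE normal lung and 1.44 and 0.964 FPKM in WT lung, a difference of 1.58 on the log2 scale (limma adjusted p = 0.314). Slc6a9, the glycine carrier GlyT1, had 10.97 and 7.69 FPKM in OE normal lung and 12.9 and 17.99 FPKM in WT lung.

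Among the sugar carriers, Slc2a3 rose and the insulin-responsive Slc2a4, together with Slc2a12, fell. Slc2a3, the high-affinity glucose carrier GLUT3 of neurons, had 137, 28.1 and 14.3 FPKM in tumors 1, 2 and 3, against 6.01 and 2.48 FPKM in OE normal lung and 2.40 and 1.64 FPKM in WT lung. All 3 tumors lay above all 4 normal lungs, and the tumors themselves spread from 14.3 to 137 FPKM. The mean was 14.1-fold that of OE normal lung (difference of 3.00 in log2, SE 0.90, limma adjusted p = 0.0419) and 29.6-fold that of WT lung (3.72, SE 0.90, adjusted p = 0.0209). Without tumor 1 the mean was 4.99-fold that of OE normal lung and 10.5-fold that of WT lung. The call against OE normal lung was lost without tumor 2 or without any 1 of the 4 normal lungs (adjusted p = 0.0748 to 0.211). That against WT lung was lost without either WT lung (adjusted p = 0.0900 to 0.117). In bulk tissue such a difference can come from the cell types present or from the RNA per cell, and fewer cells of a type and less RNA per cell cannot be told apart for any gene described here.

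Slc2a1, the widely expressed basal glucose carrier GLUT1, had 15.0, 14.4 and 15.7 FPKM in the tumors, against 11.8 and 14.2 FPKM in OE normal lung and 10.0 and 11.7 FPKM in WT lung. It was higher than in WT lung by 0.44 on the log2 scale (SE 0.13, limma adjusted p = 0.0445) and by 0.20 than in OE normal lung (adjusted p = 0.285). Its call against WT lung was lost on omission of any library except tumor 1 (adjusted p = 0.0580 to 0.267) and with sex as a covariate (adjusted p = 0.135). The ratio of Slc2a3 to Slc2a1 FPKM was 9.12, 1.95 and 0.910 in the tumors, against 0.509 and 0.174 in OE normal lung and 0.240 and 0.140 in WT lung. The 8 sugar carriers that were tested summed to 164.8, 52.4 and 41.4 FPKM in the tumors, against 46.6 and 40.7 FPKM in OE normal lung and 30.9 and 34.2 FPKM in WT lung. Tumor 3 thus lay within the range of OE normal lung in the sum. Slc2a3 made up 83.0%, 53.6% and 34.5% of it in tumors 1, 2 and 3, against 12.9% and 6.08% in OE normal lung and 7.77% and 4.78% in WT lung.

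Slc2a4, the insulin-responsive carrier GLUT4 of muscle and fat, had 0.270, 0.176 and 0.256 FPKM in the tumors, against 3.84 and 6.46 FPKM in OE normal lung and 2.63 and 4.93 FPKM in WT lung. It fell by 2.28 on the log2 scale against OE normal lung (SE 0.27, limma adjusted p = 0.00164) and by 1.91 against WT lung (SE 0.27, adjusted p = 0.00314). Heart muscle markers moved with it. All 8 were lower in the tumors against either normal group. They summed to 3.56 to 7.89 FPKM in the tumors, against 739 and 1768 FPKM in OE normal lung and 778 and 1359 FPKM in WT lung, with none at 0 in all 3 tumors. In both normal groups the second library was the higher in Slc2a4 and in these markers, and the part of such tissue in the result was not tested. Adipocyte markers, of which 5 of 6 were lower than in OE normal lung and 4 were lower and 1 higher than in WT lung, summed to 49.5, 88.6 and 114.6 FPKM in the tumors, against 207.9 and 92.0 FPKM in OE normal lung and 42.7 and 48.2 FPKM in WT lung. Their part was not tested either. Slc2a12, a related carrier named GLUT12, had 0.257, 0.0962 and 0.163 FPKM in the tumors, against 4.37 and 4.56 FPKM in OE normal lung and 3.54 and 3.15 FPKM in WT lung (log2 differences -2.22 and -1.89, limma adjusted p = 0.000291 and 0.000294). Slc2a6 had 1.19, 0.557 and 0.836 FPKM in the tumors and was lower than in OE normal lung (log2 scale -1.83, SE 0.38, limma adjusted p = 0.0117). OE normal 1 held 9.10 FPKM of it. Against WT lung the difference was -0.25 (adjusted p = 0.628). The urate carrier Slc2a9 and the proton-coupled inositol carrier Slc2a13 were under 5 FPKM in all groups and were lower in both comparisons. Slc2a13 had the opposite sign against OE normal lung after quantile normalization (0.23, adjusted p = 0.241). The calls of both genes were lost by that setting against WT lung (adjusted p = 0.293 for Slc2a9 and 0.349 for Slc2a13), as was that of Slc2a9 against OE normal lung (adjusted p = 0.139). Omission of either WT lung ended the call of Slc2a9 there (adjusted p = 0.0731 to 0.0765). That of Slc2a13 against OE normal lung was lost without tumor 2, tumor 3 or either OE normal lung (adjusted p = 0.0888 to 0.135). Slc2a8 averaged 6.15 ± 0.929 FPKM in the tumors, 6.88 ± 0.603 in OE normal lung and 7.56 ± 0.762 in WT lung. It was called, lower than in WT lung, only without tumor 1 among the settings run (-0.37, adjusted p = 0.0316).

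Of the 13 Slc5a members 3 were tested (Slc5a1, Slc5a3 and Slc5a6), and none was called. The intestinal glucose carrier Slc5a1 (SGLT1) had 0.490, 0.353 and 0.752 FPKM in the tumors, against 1.28 and 0.883 FPKM in OE normal lung and 1.13 and 0.839 FPKM in WT lung. The kidney glucose carrier Slc5a2 (SGLT2) reached at most 0.0209 FPKM in any library. Slc5a12, a lactate carrier, had the highest value of any member below the minimum, 2.27 FPKM in WT 2.

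Of the genes fixed for glucose uptake and its control, 5 of 17 tested were higher and 3 lower in the tumors than in OE normal lung, and 6 were higher and 3 lower than in WT lung. Of all genes 13.1% were higher and 24.9% lower in the first comparison, and 15.0% and 23.2% in the second. The list's median log2 difference was 0.27 and 0.11, against -0.11 and -0.06 over all genes. The hexokinases, which trap glucose in the cell as its phosphate, went opposite ways. Hk2 had 8.33, 17.4 and 20.7 FPKM in the tumors, against 4.58 and 5.91 FPKM in OE normal lung and 5.30 and 5.58 FPKM in WT lung (log2 differences 1.32 and 1.27, limma adjusted p = 0.0314 and 0.0358). Hk1 had 9.58, 2.66 and 4.10 FPKM in the tumors, against 17.5 and 17.5 FPKM in OE normal lung and 16.2 and 14.6 FPKM in WT lung (log2 differences -1.67 and -1.49, adjusted p = 0.0240 and 0.0351). Hif1a, the oxygen-regulated activator of glycolytic genes, had 27.9, 36.9 and 36.6 FPKM in the tumors, against 15.8 and 18.8 FPKM in OE normal lung and 15.6 and 14.5 FPKM in WT lung (adjusted p = 0.00682 and 0.00357). Tbc1d1, a Rab GTPase-activating protein that holds back GLUT4 vesicles, had 3.56, 1.88 and 2.32 FPKM in the tumors, against 7.85 and 9.19 FPKM in OE normal lung and 7.84 and 7.16 FPKM in WT lung (adjusted p = 0.00384 and 0.00610). Of the 3 tumors, tumor 1 was the highest in Slc2a3, Hk1 and Tbc1d1 and the lowest in Hk2 and Hif1a.

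**Figure D2:**
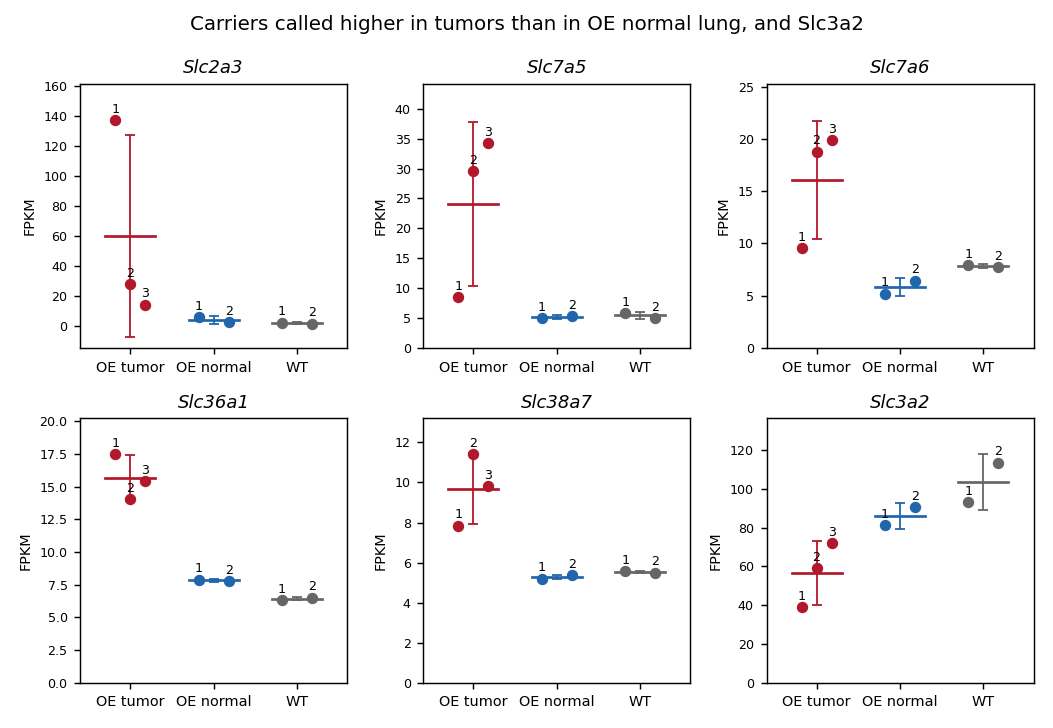
FPKM per library (points) and group means for the transporter genes called higher in the tumors than in OE normal lung, and for Slc3a2. Tumors are on the left, OE normal lung in the middle and WT lung on the right. Slc3a2 was not called higher, and Slc2a1, called higher only against WT lung, is not shown. Slc36a1 sits between 14.02 and 17.5 FPKM in the tumors and between 6.35 and 7.89 FPKM in the normal lungs, while Slc7a5 reaches 8.56 FPKM in tumor 1, and in tumors 2 and 3 it reaches 29.5 and 34.3 FPKM.

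The exchangers that pair with a heavy chain differed in composition between tumors and normal lung. Slc7a5, the light chain LAT1, which imports leucine and other large neutral amino acids in exchange for glutamine, had 8.56, 29.5 and 34.3 FPKM in tumors 1, 2 and 3, against 4.9997 and 5.38 FPKM in OE normal lung and 5.91 and 5.01 FPKM in WT lung. All tumors lay above all normal lungs, with tumor 1 closest to them. The mean was 4.65-fold that of OE normal lung (difference in log2 1.81, SE 0.55, limma adjusted p = 0.0434) and 4.42-fold that of WT lung (1.75, SE 0.55, adjusted p = 0.0479). Both calls were lost on omission of any library except tumor 1 (adjusted p = 0.0781 to 0.174 against OE normal lung and 0.0849 to 0.202 against WT lung). With sex as a covariate the difference from WT lung was 1.05 (adjusted p = 0.150), and rescaling to TPM ended both calls (adjusted p = 0.0633 and 0.0609). Slc7a6, the light chain y+LAT2, which exchanges cationic for neutral amino acids, had 9.55, 18.8 and 19.9 FPKM in the tumors, against 5.20 and 6.44 FPKM in OE normal lung and 7.95 and 7.71 FPKM in WT lung. It rose against OE normal lung (difference in log2 1.27, SE 0.31, limma adjusted p = 0.0217), and the difference from WT lung was 0.89 (SE 0.31, adjusted p = 0.0667). The first call was lost without tumor 2, tumor 3 or either OE normal lung (adjusted p = 0.0602 to 0.129). Without tumor 1 the difference from WT lung was called (1.20, adjusted p = 0.000415). Its neighbour Slc7a6os averaged 17.2 ± 1.85 FPKM in the tumors, 14.5 ± 1.20 in OE normal lung and 15.1 ± 0.964 in WT lung and was not called. Without tumor 1 it was called higher in both comparisons (0.32 and 0.26, adjusted p = 0.0226 and 0.0460).

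Their heavy chain did not rise with them. Slc3a2, the CD98 heavy chain, had 39.2, 59.1 and 71.9 FPKM in the tumors, against 81.2 and 90.5 FPKM in OE normal lung and 93.1 and 113 FPKM in WT lung. Every tumor lay below every normal lung. It fell by 0.89 on the log2 scale against WT lung (SE 0.26, limma adjusted p = 0.0392), and the difference from OE normal lung was -0.63 (SE 0.26, adjusted p = 0.105). The call against WT lung was lost without tumor 2 or without any 1 of the 4 normal lungs (adjusted p = 0.0700 to 0.211) and by median-of-ratios scaling (adjusted p = 0.0922). The difference from OE normal lung was called after quantile normalization (adjusted p = 0.0488) and with sex as a covariate (adjusted p = 0.0333). The ratio of Slc7a5 to Slc3a2 FPKM was 0.218, 0.499 and 0.476 in the tumors, against 0.0615 and 0.0594 in OE normal lung and 0.0634 and 0.0441 in WT lung. Slc3a1, the heavy chain of the kidney cystine carrier, stayed at or under 0.291 FPKM in all libraries.

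Slc7a10, the light chain Asc-1, which exchanges serine, glycine and alanine, fell to under 1 FPKM in every tumor. It had 0.504, 0.00977 and 0.0528 FPKM there, against 11.1 and 15.5 FPKM in OE normal lung and 16.7 and 18.7 FPKM in WT lung. It fell by 3.60 on the log2 scale against OE normal lung (SE 0.23, limma adjusted p = 0.000301) and the difference from WT lung was -4.00 (SE 0.23, adjusted p = 0.000232). Slc7a7, the light chain y+LAT1 of epithelia and macrophages, had 5.79, 1.42 and 1.47 FPKM in the tumors, against 7.49 and 10.4 FPKM in OE normal lung and 6.002 and 5.83 FPKM in WT lung. It was lower than in OE normal lung (difference in log2 -1.52, SE 0.47, limma adjusted p = 0.0464), a call lost on omission of any library except tumor 1 (adjusted p = 0.0840 to 0.217). The difference from WT lung was -1.01 (adjusted p = 0.138), which was called without tumor 1 (-1.50, adjusted p = 0.000616). Of 8 macrophage markers 2 were higher and none lower against OE normal lung, and 4 were higher and none lower against WT lung. They summed to 199.3, 95.3 and 138.9 FPKM in the tumors, against 147.9 and 100.2 FPKM in OE normal lung and 68.4 and 60.3 FPKM in WT lung. Slc7a11, the cystine-glutamate exchanger xCT, had 0.746, 1.67 and 1.92 FPKM in the tumors, against 0.858 and 0.553 FPKM in OE normal lung and 0.912 and 0.928 FPKM in WT lung, and was not called (adjusted p = 0.161 and 0.346).

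The 6 light chains that were tested summed to 27.6, 52.2 and 58.6 FPKM in the tumors, against 31.9 and 40.5 FPKM in OE normal lung and 40.4 and 39.6 FPKM in WT lung. Tumor 1 was below all normal lungs and tumors 2 and 3 above them. Within that sum Slc7a5 held 31.0%, 56.5% and 58.5% in the tumors, against 15.7% and 13.3% in OE normal lung and 14.6% and 12.6% in WT lung. The share of Slc7a6 was 34.6%, 35.96% and 33.9% in the tumors, against 16.3% and 15.9% in OE normal lung and 19.7% and 19.5% in WT lung, and it was alike in all 3 tumors. Slc7a10 made up 1.83% of the sum in tumor 1 and 0.0187% and 0.0902% in tumors 2 and 3, against 34.9% and 38.3% in OE normal lung and 41.4% and 47.2% in WT lung. The shares of the 3 genes did not overlap between the tumors and the normal lungs. Neither, narrowly, did that of Slc7a11, at 2.71% to 3.27% in the tumors and 1.36% to 2.69% in the normal lungs. The shares of Slc7a7 and Slc7a8 overlapped. Shares of a common sum depend on each other, so a lower share of Slc7a10 raises the others. In FPKM Slc7a11 did overlap, with 0.746 in tumor 1 against 0.553 to 0.928 in the normal lungs.

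**Figure D3:**
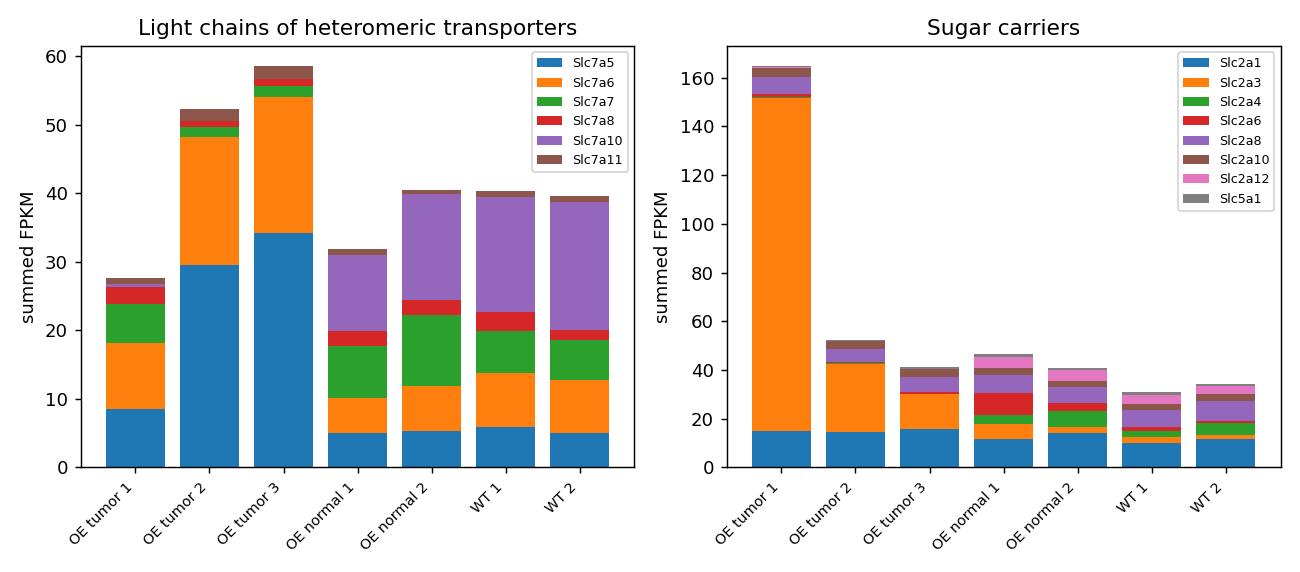
Summed FPKM per library of the sugar carriers and of the heterodimer light chains, split by gene, with the 3 tumors on the left, then OE normal lung and WT lung. Slc2a3 makes up 34.5% to 83.0% of the sugar carrier sum in the tumors and 4.78% to 12.9% in the normal lungs, and Slc7a10 makes up at most 1.83% of the light chain sum in the tumors and at least 34.9% in the normal lungs.

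The Slc7a members that work without a heavy chain were not called. The arginine carrier Slc7a2 (CAT2) averaged 11.4 ± 2.09 FPKM in the tumors, 8.25 ± 0.859 in OE normal lung and 8.13 ± 1.10 in WT lung (limma adjusted p = 0.138 and 0.122). Against OE normal lung it was called higher by median-of-ratios scaling (0.57, adjusted p = 0.0492) and quantile normalization (0.61, adjusted p = 0.0357). Slc7a1 (CAT1), the widely expressed arginine and lysine carrier, averaged 3.07 ± 1.78 FPKM in the tumors, 4.69 ± 1.59 in OE normal lung and 5.74 ± 0.459 in WT lung. Without tumor 1 it was called lower in both comparisons (-0.87 and -1.14, adjusted p = 0.0114 and 0.00432). The orphan Slc7a4 averaged 3.83 ± 0.889 FPKM in the tumors, 5.67 ± 1.47 in OE normal lung and 6.38 ± 0.968 in WT lung.

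Slc36a1 and Slc38a7 rose, while Slc36a2, Slc36a4 and, against OE normal lung, Slc38a9 fell. Slc36a1 (PAT1), a proton-coupled carrier of small neutral amino acids found on lysosomes, had 17.5, 14.02 and 15.4 FPKM in the tumors, against 7.89 and 7.77 FPKM in OE normal lung and 6.35 and 6.52 FPKM in WT lung. It was higher in every tumor than in every normal lung (log2 differences 0.91 and 1.16, SE 0.13 in both, limma adjusted p = 0.00308 and 0.00133), and its calls held under every alternative that was run. Slc38a7 (SNAT7), which exports glutamine from lysosomes, had 7.85, 11.4 and 9.83 FPKM in the tumors, against 5.21 and 5.36 FPKM in OE normal lung and 5.57 and 5.50 FPKM in WT lung. The tumors again lay above all normal lungs (log2 differences 0.75 and 0.70, SE 0.17 in both, limma adjusted p = 0.0153 and 0.0205). Its calls were lost without tumor 3 or either OE normal lung in the first comparison (adjusted p = 0.0519 to 0.0896). In the second they were lost without tumor 2, tumor 3 or either WT lung (adjusted p = 0.0579 to 0.121), where sex as a covariate ended it too (adjusted p = 0.0660). Slc38a9, the lysosomal arginine sensor that signals to mTORC1, had 2.43, 1.82 and 1.90 FPKM in the tumors, against 3.10 and 3.99 FPKM in OE normal lung and 2.67 and 2.63 FPKM in WT lung. It was lower than in OE normal lung (difference in log2 -0.58, SE 0.16, limma adjusted p = 0.0323), a call lost on omission of any library except tumor 1 (adjusted p = 0.0594 to 0.185) and by quantile normalization (-0.03, adjusted p = 0.879). The difference from WT lung was -0.27 (adjusted p = 0.230).

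Promoter windows of Slc36a1 and Slc38a7, which rose, are shown with that of Slc38a5, which fell, since each holds the palindrome CACGTG, the core letters bound by basic helix-loop-helix factors such as those of lysosomal genes. The windows run from 250 bases before to 50 bases after the start of transcription in RefSeq, build GRCm38.p6, at chr11:55204090-55204389 on the plus strand for Slc36a1, chr8:95853442-95853741 on the minus strand for Slc38a7 and chrX:8271131-8271430 on the plus strand for Slc38a5. Capitals mark CACGTG.
Slc36a1: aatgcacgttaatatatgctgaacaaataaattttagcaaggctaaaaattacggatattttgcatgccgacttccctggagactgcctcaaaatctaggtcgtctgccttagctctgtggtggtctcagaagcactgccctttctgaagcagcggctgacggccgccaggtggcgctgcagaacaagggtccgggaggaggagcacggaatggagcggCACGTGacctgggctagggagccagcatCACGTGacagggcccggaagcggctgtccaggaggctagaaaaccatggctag
Slc38a7: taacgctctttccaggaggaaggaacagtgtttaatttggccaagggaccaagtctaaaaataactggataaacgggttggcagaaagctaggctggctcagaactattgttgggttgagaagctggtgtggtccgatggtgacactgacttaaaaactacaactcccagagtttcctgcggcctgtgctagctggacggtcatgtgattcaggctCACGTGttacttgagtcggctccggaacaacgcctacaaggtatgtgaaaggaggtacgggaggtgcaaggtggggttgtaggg
Slc38a5: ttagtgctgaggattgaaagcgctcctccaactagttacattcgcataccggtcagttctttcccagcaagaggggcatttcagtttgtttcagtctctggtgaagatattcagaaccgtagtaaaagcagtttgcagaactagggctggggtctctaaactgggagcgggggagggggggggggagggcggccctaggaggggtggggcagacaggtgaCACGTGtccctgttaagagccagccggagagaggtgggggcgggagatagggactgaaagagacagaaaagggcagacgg
Slc36a1 has 2 matches and the other windows have 1 each. The RefSeq table held 87 windows of 64 members, of which 10.3% had CACGTG, against 7.15% of all 32851 windows. The letters TGATGNAA, the core of the element to which ATF4 binds, read on both strands, were in 4.60% of the member windows and in 3.97% of all. GGGCGG, the core of a GC box, was in 51.7% and 35.7%, and the median GC content was 57.7% in member windows and 52.7% in all. Of the other members that rose, Slc2a1 and Slc7a6 had windows without CACGTG, and Slc2a3 and Slc7a5 had no window. Some uncalled or untested members, such as Slc43a1, Slc7a14 and Slc1a6, held it too. The presence of these letters in both a gene that rose and a gene that fell is a description of the windows only.

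Slc36a2 (PAT2), a high-affinity glycine and proline carrier, had 1.59, 1.04 and 1.65 FPKM in the tumors, against 14.2 and 10.7 FPKM in OE normal lung and 12.2 and 13.7 FPKM in WT lung (log2 differences -2.46 and -2.53, SE 0.19 in both, limma adjusted p = 0.000414 and 0.000368). Slc36a4 (PAT4), a high-affinity proline and tryptophan carrier, had 2.37, 1.17 and 1.20 FPKM in the tumors, against 6.39 and 5.89 FPKM in OE normal lung and 5.81 and 5.02 FPKM in WT lung (log2 differences -1.50 and -1.34, SE 0.23 in both, limma adjusted p = 0.00371 and 0.00571). Without WT 1 the second of these had an adjusted p of 0.0504. So of the 3 tested members of this family 1 was higher and 2 were lower in both comparisons, where 38.1% and 38.2% of all genes were called.

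Of the glutamine carriers and their relatives Slc1a5, Slc38a2, Slc38a1 and Slc1a4, Slc38a1 alone passed the test, against OE normal lung. Slc1a5 (ASCT2), the exchanger of glutamine and other neutral amino acids, had 34.0, 72.7 and 71.8 FPKM in the tumors, against 76.8 and 61.5 FPKM in OE normal lung and 60.6 and 65.8 FPKM in WT lung. Tumor 1 lay below the normal lungs and tumors 2 and 3 within their range, and no difference was called (log2 differences -0.28 and -0.16, SE 0.34 in both, limma adjusted p = 0.542 and 0.732). Slc38a2 (SNAT2), which is induced when amino acids are short, had 81.7, 52.1 and 48.1 FPKM in the tumors, against 33.3 and 42.9 FPKM in OE normal lung and 47.1 and 43.4 FPKM in WT lung. The difference from OE normal lung was 0.63 (SE 0.25, adjusted p = 0.0942) and that from WT lung 0.38 (adjusted p = 0.274). The first was called by median-of-ratios scaling (adjusted p = 0.0246) and without tumor 1 (0.40, adjusted p = 0.0419). Slc38a1 (SNAT1), the related glutamine carrier, had 4.78, 0.866 and 0.898 FPKM in the tumors, against 6.90 and 8.28 FPKM in OE normal lung and 4.81 and 5.52 FPKM in WT lung. It was lower than in OE normal lung (difference in log2 -1.65, SE 0.50, limma adjusted p = 0.0448), a call lost on omission of any library except tumor 1 (adjusted p = 0.0805 to 0.192). The difference from WT lung (-1.17, adjusted p = 0.114) was called without tumor 1 (-1.71, adjusted p = 0.000191). Slc1a4 (ASCT1), a serine and alanine exchanger, had 6.38, 0.828 and 0.829 FPKM in the tumors, against 6.87 and 8.74 FPKM in OE normal lung and 8.27 and 11.01 FPKM in WT lung. Of the settings run it was called only without tumor 1 (log2 differences -2.26 and -2.53, adjusted p = 0.000232 and 0.000159).

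Slc38a5 (SNAT5), a carrier of glutamine, serine and glycine, had 0.444, 0.0207 and 0.140 FPKM in the tumors, against 12.7 and 9.26 FPKM in OE normal lung and 13.1 and 14.7 FPKM in WT lung. It fell by 3.32 on the log2 scale against OE normal lung (SE 0.21, limma adjusted p = 0.000301) and by 3.65 against WT lung (SE 0.21, adjusted p = 0.000232). The remaining Slc38a members above 5 FPKM were not called. Slc38a10 had 29.5, 15.2 and 14.1 FPKM in the tumors, against 30.8 and 27.4 FPKM in OE normal lung and 26.6 and 24.04 FPKM in WT lung. Without tumor 1 it was called lower in both comparisons (log2 differences -0.94 and -0.75, adjusted p = 0.000603 and 0.00137). Slc38a4 had 0.870, 4.74 and 5.53 FPKM in the tumors, against 2.52 and 6.59 FPKM in OE normal lung and 7.94 and 5.79 FPKM in WT lung. Of the settings run it was called lower than in WT lung only with sex as a covariate (-1.89, adjusted p = 0.00566). Slc38a6 averaged 6.07 ± 1.58 FPKM in the tumors, 6.45 ± 0.613 in OE normal lung and 5.90 ± 0.867 in WT lung.

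Of the glutamate carriers, Slc1a3 (GLAST) fell and Slc1a1 (EAAC1) did not. Slc1a3 had 2.23, 0.642 and 0.690 FPKM in the tumors, against 6.58 and 6.06 FPKM in OE normal lung and 5.55 and 4.86 FPKM in WT lung (log2 differences -1.82 and -1.58, SE 0.31 in both, limma adjusted p = 0.00602 and 0.0106), and the second call was lost without either WT lung (adjusted p = 0.0608 to 0.0728). Slc1a1 averaged 9.11 ± 2.29 FPKM in the tumors, 5.92 ± 1.13 in OE normal lung and 7.15 ± 1.01 in WT lung (adjusted p = 0.120 and 0.358). It was called higher than in OE normal lung without tumor 1 (0.71, adjusted p = 0.0129).

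Among Slc6a members every call was lower in the tumors, 4 of 9 tested against OE normal lung and 5 against WT lung, where 24.9% and 23.2% of all genes were called lower. Slc6a2, the noradrenaline carrier NET, which lung endothelium uses to clear noradrenaline from blood, had 0.0397, 0.141 and 0.230 FPKM in the tumors, against 17.3 and 26.2 FPKM in OE normal lung and 17.2 and 19.0 FPKM in WT lung. It fell by 4.30 on the log2 scale against OE normal lung (SE 0.20, limma adjusted p = 0.000243) and by 4.07 against WT lung (SE 0.20, adjusted p = 0.000173). Endothelial markers moved with it. Each of the 10 was lower in the tumors against either normal group. They summed to 164 to 185 FPKM in the tumors, against 1234 and 1410 FPKM in OE normal lung and 1443 and 1598 FPKM in WT lung, with none at 0 in all 3 tumors. Their median log2 difference was -2.81 against OE normal lung and -2.94 against WT lung. The part of endothelium in the result was not tested. Slc6a14, a carrier of neutral and cationic amino acids in airway and gut epithelium, had 4.82, 2.79 and 3.21 FPKM in the tumors, against 18.3 and 15.2 FPKM in OE normal lung and 24.8 and 23.1 FPKM in WT lung (log2 differences -1.97 and -2.46, SE 0.21 in both, limma adjusted p = 0.00113 and 0.000511).

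Slc6a8, the creatine carrier, had 12.0, 6.65 and 7.47 FPKM in the tumors, against 10.7 and 10.3 FPKM in OE normal lung and 14.4 and 15.4 FPKM in WT lung. It was lower than in WT lung (log2 difference -0.75, SE 0.24, limma adjusted p = 0.0475), a call lost on omission of any library except tumor 1 (adjusted p = 0.0846 to 0.212) and with sex as a covariate (adjusted p = 0.151). The difference from OE normal lung was -0.29 (adjusted p = 0.370), called without tumor 1 (-0.52, adjusted p = 0.00405). The neutral amino acid carrier Slc6a15 and the proline carrier Slc6a20a were under 5 FPKM in all groups and were lower in both comparisons. Slc6a15 had 0.139, 0.221 and 0.395 FPKM in the tumors, against 1.80 and 1.16 FPKM in OE normal lung and 2.53 and 2.17 FPKM in WT lung. Quantile normalization ended its call against OE normal lung (adjusted p = 0.367). Slc6a20a lost its call against WT lung on omission of any library except tumor 1 (adjusted p = 0.0514 to 0.180), by quantile normalization (adjusted p = 0.0927), with a pseudocount of 0.1 (adjusted p = 0.0662) and with sex as a covariate (adjusted p = 0.114). It had an adjusted p of 0.0504 against OE normal lung without OE normal 1. Slc6a6, the taurine carrier, had 24.9, 37.5 and 41.5 FPKM in the tumors, against 54.8 and 38.2 FPKM in OE normal lung and 36.1 and 36.8 FPKM in WT lung (adjusted p = 0.233 and 0.771). Slc6a9 averaged 13.0 ± 1.98 FPKM in the tumors, 9.33 ± 2.31 in OE normal lung and 15.5 ± 3.58 in WT lung and was not called. Slc6a19, the neutral amino acid carrier of gut and kidney brush borders, had 0.0263, 1.26 and 1.52 FPKM in the tumors and at most 0.0211 FPKM in any normal lung, also without a call.

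Slc43a3, a purine base carrier also known from endothelium, was the highest member in normal lung. It had 13.4, 8.05 and 12.5 FPKM in the tumors, against 146 and 135 FPKM in OE normal lung and 202 and 183 FPKM in WT lung. It was 12.4-fold lower in the tumors than in OE normal lung (difference in log2 -3.55, SE 0.22, limma adjusted p = 0.000298) and 17.0-fold lower than in WT lung (-4.00, SE 0.22, adjusted p = 0.000216). The endothelial markers given beside Slc6a2 moved with it as well, and their part in this result was not tested. Its relative Slc43a2 (LAT4), an exit route for branched-chain amino acids, had 48.4, 6.93 and 6.76 FPKM in the tumors, against 13.8 and 11.8 FPKM in OE normal lung and 15.1 and 10.9 FPKM in WT lung. Tumor 1 lay above and tumors 2 and 3 below all normal lungs. The difference was not called (log2 differences 0.08 and 0.07, SE 0.81 in both, limma adjusted p = 0.948 and 0.955). Without tumor 1 it turned to -0.81 and -0.82 (adjusted p = 0.00732 and 0.00729).

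**Figure D4:**
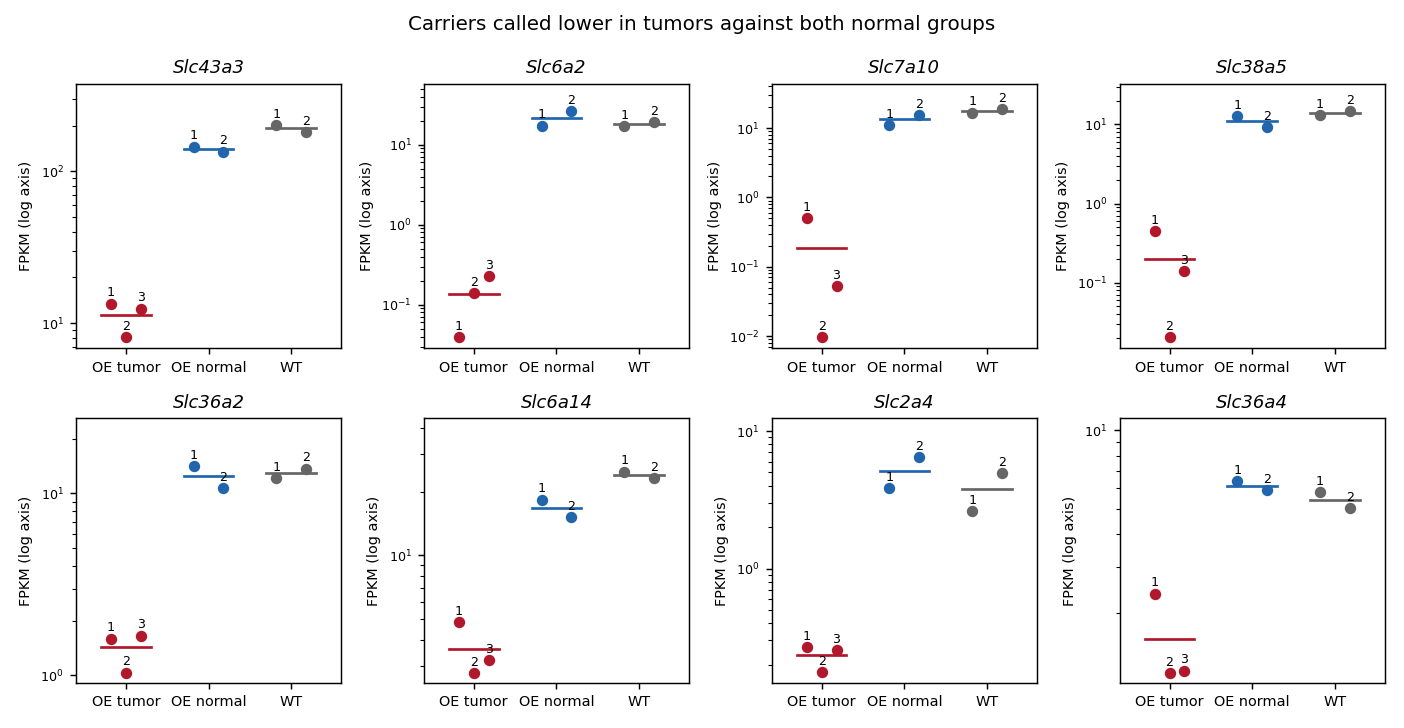
FPKM per library on a log axis (points) and group means for transporter genes called lower in the tumors, with tumors on the left, OE normal lung in the middle and WT lung on the right. Slc6a2 has at most 0.230 FPKM in a tumor and at least 17.2 FPKM in a normal lung.

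**Figure D5:**
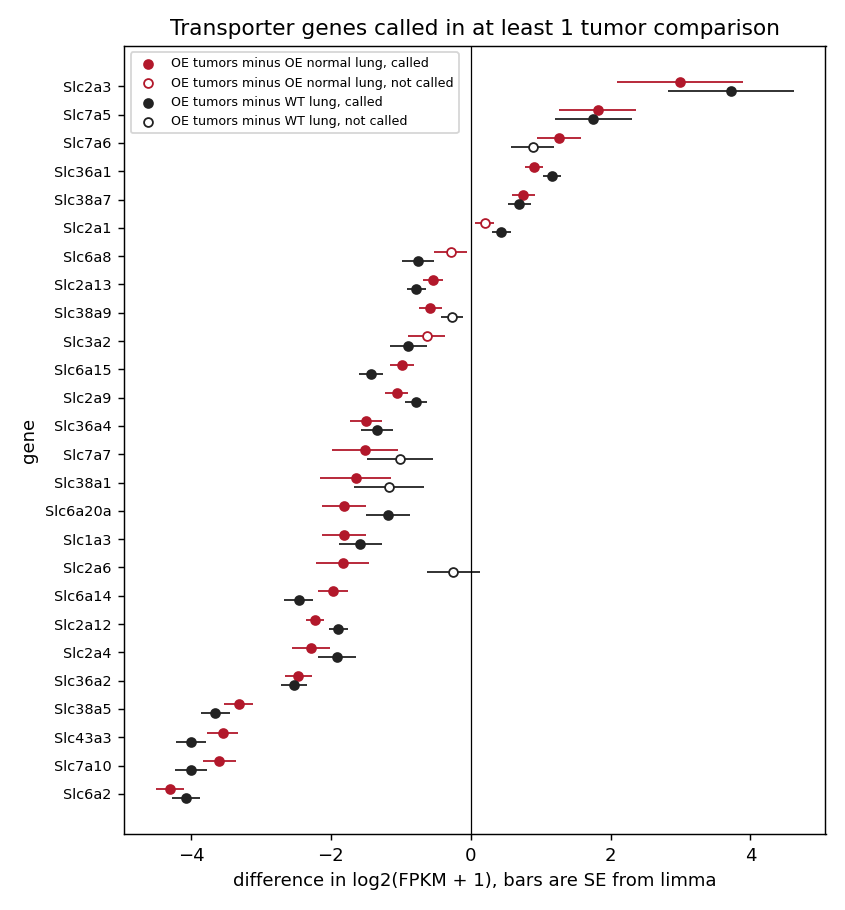
Difference in log2(FPKM + 1) of each transporter gene called in at least 1 tumor comparison, tumors over OE normal lung and tumors over WT lung, with bars for the SE from limma. The values run from -4.30 for Slc6a2 to 3.72 for Slc2a3, whose SE of 0.90 is the widest shown.

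By family, the counts stand against 13.1% higher and 24.9% lower of all genes in the comparison with OE normal lung, and 15.0% and 23.2% in that with WT lung, and with so few members a family none is set apart by them. Here 1 of 5 tested Slc1a members was lower in each comparison. In the Slc2a family 1 of 9 was higher and 5 lower against OE normal lung, and 2 were higher and 4 lower against WT lung. In the Slc7a family, counted with Slc7a6os, which is no carrier, 2 of 11 were higher and 2 lower against OE normal lung. Against WT lung 1 was higher and 1 lower. In the Slc38a family 1 of 8 was higher and 3 lower against OE normal lung, and 1 was higher and 1 lower against WT lung. Of the 3 Slc43a members 1 was lower in both comparisons.

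Tumor 1 lay further from tumors 2 and 3 in these genes than the normal lungs of a group lay from each other. Of the 52 members tested, 12 differed at least 2-fold in FPKM + 1 between tumors 1 and 2, 13 between tumors 1 and 3 and none between tumors 2 and 3, against 4 between the OE normal lungs and none between the WT lungs. Of the 25 members that reached 5 FPKM in a tumor, tumor 1 was at least 2-fold above both others in 5 (Slc1a4, Slc2a3, Slc6a4, Slc7a7 and Slc43a2) and at least 2-fold below both in 3 (Slc1a5, Slc7a5 and Slc38a4). On FPKM, tumor 1 was 4.87-fold and 9.59-fold above tumors 2 and 3 in Slc2a3, 7.71-fold and 7.70-fold in Slc1a4, and 6.98-fold and 7.17-fold in Slc43a2. Tumors 2 and 3 were 3.45-fold and 4.01-fold above tumor 1 in Slc7a5. The serotonin carrier Slc6a4 had 5.05, 0.706 and 0.628 FPKM in the tumors, against 2.98 and 0.879 FPKM in OE normal lung and 2.16 and 1.88 FPKM in WT lung. Several marker lists set tumor 1 apart, among them those of fibroblasts and smooth muscle and of alveolar type 2 cells. Mast cell and platelet markers summed to 59.7, 231.7 and 199.97 FPKM in tumors 1, 2 and 3. Erythroid markers summed to 47.5, 154.4 and 178.3 FPKM in the same order, and alveolar type 1 markers to 779, 1291 and 1180 FPKM. Endothelial markers summed to 171, 164 and 185 FPKM in tumors 1, 2 and 3, and club cell markers were highest in tumor 3. Fibroblast and smooth muscle markers, of which 4 of 8 were lower and none higher in either comparison, summed to 651.2, 90.0 and 118.6 FPKM in tumors 1, 2 and 3, against 558.4 and 710.8 FPKM in OE normal lung and 615.7 and 826.3 FPKM in WT lung. Alveolar type 2 markers, of which 7 of 9 were higher and none lower, summed to 8000, 12978 and 13046 FPKM in tumors 1, 2 and 3, against 3108 and 2091 FPKM in OE normal lung and 3376 and 2448 FPKM in WT lung. The part of these cells in the transporter values was not tested.

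The other epithelial lists fell in the tumors. All 7 ciliated markers tested were lower in either comparison and summed to 11.7 to 21.8 FPKM in the tumors, against 373 and 425 FPKM in OE normal lung and 481 and 539 FPKM in WT lung. Of 6 club cell markers 4 were lower and summed to 104 to 353 FPKM in the tumors, against 2479 and 2340 FPKM in OE normal lung and 2684 and 2570 FPKM in WT lung. Of 8 alveolar type 1 markers 5 were lower in each comparison and 1 was higher against OE normal lung, and they summed to 779 to 1291 FPKM in the tumors, against 2011 and 1722 FPKM in OE normal lung and 2754 and 3079 FPKM in WT lung. These lists moved with epithelial carriers such as Slc6a14, and their part in that result was not tested. Of 8 lymphocyte markers 8 were lower than in OE normal lung and 6 than in WT lung, and all 4 erythroid markers tested were lower in both comparisons. Of 8 mast cell and platelet markers 1 was higher and 3 lower than in OE normal lung, and 1 was higher than in WT lung.

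Genes of the amino acid response, which ATF4 drives when amino acids are short, were measured in 25 of 26 cases above the minimum. Of these, 7 were higher and 2 lower than in OE normal lung, and 7 were higher and 4 lower than in WT lung, with median log2 differences of 0.16 and 0.17. Over all genes 13.1% were higher and 24.9% lower than in OE normal lung, and 15.0% and 23.2% than in WT lung, with medians of -0.11 and -0.06. Gars, a glycyl-tRNA synthetase, had 58.6, 102 and 128 FPKM in the tumors, against 26.8 and 28.3 FPKM in OE normal lung and 31.9 and 30.1 FPKM in WT lung (limma adjusted p = 0.00774 and 0.0116). Psat1, an enzyme of serine synthesis, had 34.6, 16.9 and 13.7 FPKM in the tumors, against 6.27 and 5.06 FPKM in OE normal lung and 6.05 and 6.52 FPKM in WT lung (adjusted p = 0.0151 and 0.0206). Trib3, a pseudokinase induced by ATF4, had 7.94, 13.9 and 13.2 FPKM in the tumors, against 3.03 and 3.47 FPKM in OE normal lung and 3.61 and 4.3999 FPKM in WT lung (adjusted p = 0.00473 and 0.00893). Atf3, a stress-induced transcription factor of the same list, was lower, with 1.65, 1.71 and 2.82 FPKM in the tumors, against 4.997 and 11.6 FPKM in OE normal lung and 6.37 and 9.07 FPKM in WT lung (adjusted p = 0.0184 and 0.0192).

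Of the genes for use of glutamine, cystine and glutathione, 4 of 18 tested were higher and 2 lower than in OE normal lung, and 4 were higher and 3 lower than in WT lung, with median log2 differences of 0.15 and 0.04, to be read against the same shares and medians of all genes. Gpt2, a mitochondrial alanine transaminase, had 12.3, 9.91 and 10.1 FPKM in the tumors, against 4.05 and 3.87 FPKM in OE normal lung and 4.29 and 5.17 FPKM in WT lung (limma adjusted p = 0.00173 and 0.00331). Hmox1, the haem oxygenase, had 49.9, 70.7 and 63.0 FPKM in the tumors, against 30.7 and 43.4 FPKM in OE normal lung and 17.2 and 15.1 FPKM in WT lung (adjusted p = 0.0394 and 0.00137). Nqo1, a quinone reductase under the same regulator NRF2, was lower, with 0.412, 2.08 and 2.46 FPKM in the tumors, against 8.36 and 4.47 FPKM in OE normal lung and 8.93 and 6.86 FPKM in WT lung (adjusted p = 0.0366 and 0.0204).

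The members below the minimum were mostly carriers of kidney, gut and brain. Among them were Slc1a6, Slc1a7, Slc2a2, Slc2a5, Slc2a7, Slc3a1, 10 of the 13 Slc5a members, Slc6a3, Slc6a5, Slc6a7, Slc6a11, Slc6a12, Slc6a13, Slc6a17, Slc6a18, Slc6a20b, Slc7a3, Slc7a9, Slc7a12, Slc7a13, Slc7a15, Slc36a3, Slc38a3, Slc38a8 and Slc38a11. Of these 4 were listed at 0 in all libraries (Slc5a4a, Slc6a5, Slc6a11 and Slc7a12). Slc38a11 was listed at 0 in all 3 tumors, against 0.331 and 0.637 FPKM in OE normal lung and 0.0571 and 0.396 FPKM in WT lung. Tested members whose group means were all under 5 FPKM and that had no call were Slc1a2, Slc2a10, Slc5a1, Slc5a3, Slc5a6, Slc6a4, Slc6a19, Slc7a8, Slc7a11, Slc7a14 and Slc43a1. Some members share exon sequence with a gene on the opposite strand in the GENCODE annotation, among them Slc7a10 with Lrp3, Slc7a7 with Oxa1l, Slc2a12 with Tbpl1, Slc6a20a with Ccr9 and Slc6a9 with Ccdc24. The strand setting of the authors' run is not given in the sources used here, so reads of such pairs cannot be told apart. Slc5a3 shares exon sequence with Mrps6 on the same strand, where no strand setting would separate the reads. Slc6a20a and Slc6a20b are near copies whose reads could be split.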

How the data were processed

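The 7 deposited tables give gene symbols with FPKM values. The authors used Cufflinks 2.0.0, TopHat and TopHat2, with mm9 as the genome build, per the submitters' processing notes. FPKM as the unit was inferred from Cufflinks and from the deposited values. Annotation, library normalization, strand setting and read totals were not given in the sources used here. Relative depth, from the spacing of low values, was 1.20 to 1.87 times that of tumor 1 in the other libraries, and FPKM summed to 405166 to 503550. Of 22474 rows, 27 with a date in place of a symbol were left out.

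From these, log2(FPKM + 1) was tested for 14057 genes (1 FPKM or more in 2 or more of 7 libraries) with limma 3.58.1 in R 4.3.3 (3 groups in 1 fit, eBayes with trend, 2-sided, Benjamini-Hochberg adjusted p under 0.05). A log2 difference understates the change of low genes. Means are given with SD over 3 tumors, 2 OE normal and 2 WT lungs. The procedure was also run on simulated data, with independent libraries of equal spread for each gene. Tumor 1 lay apart from tumors 2 and 3 here, so that run does not show how the test behaves on these data.

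Members, gene lists, marker lists and tests were chosen with earlier results of these data known. Members called in any comparison with a group mean of at least 5 FPKM are given in every library, other members from 5 FPKM by their group values, and up to 4 called genes per pathway list, those with the largest differences and a group mean of at least 5 FPKM. Some genes within these rules are not reported here. Members were matched by symbol to RefSeq, where all 87 are protein-coding, and 64 had a promoter window. Alternatives were a pseudocount of 0.1, a minimum of 5 FPKM or none, median-of-ratios, quantile or TPM scaling, only the groups compared, a replicate block, sex as a covariate and omission of each library. Figures used Python 3.11.15 and matplotlib 3.10.9.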

Additional observations from a re-analysis of the deposited data

How the results depend on the processing

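Of 23 calls against OE normal lung 12 held under every alternative run, and of 21 against WT lung 10 did. Against OE normal lung, where 5 members were higher and 18 lower, 8 were higher by median-of-ratios scaling, 9 by quantile normalization, 3 with only the groups compared and 2 with the replicate block, and 10 were lower with a minimum of 5 FPKM, which tests fewer genes. Against WT lung, where 5 were higher and 16 lower, 3 were higher with only the groups compared, 3 by rescaling to TPM, 2 with the replicate block and 2 with sex as a covariate, and 10 were lower with a minimum of 5 FPKM. Beyond these constructions the cause was not tested. Omission of 1 library gave 1 to 11 higher and 13 to 26 lower against OE normal lung, and 1 to 10 higher and 9 to 25 lower against WT lung. With no minimum, the calls of Slc2a3, Slc7a5, Slc7a7, Slc38a1 and Slc38a9 against OE normal lung (limma adjusted p = 0.0501 to 0.0702) and of Slc3a2, Slc6a8 and Slc7a5 against WT lung (0.0563 to 0.0734) were lost. With only the groups compared, which leaves fewer libraries, the same 8 calls were lost (0.0697 to 0.0850), and so were those of Slc2a1 (0.0578) and Slc6a20a (0.0545) against WT lung. A pseudocount of 0.1 ended those of Slc7a7 (0.0535) and Slc38a1 (0.0553) against OE normal lung, and median-of-ratios scaling that of Slc7a5 against WT lung (0.0507). Same-numbered libraries did not deviate together (correlations of -0.029 to 0.034). With 2 libraries in a normal group their deviations mirror each other, so this cannot tell whether the numbers pair samples. Tumor 1 and OE normal 1 were both male and tumor 2 and OE normal 2 both female, while OE normal 2 and WT 2 differed in sex. Only the tumors have a replicate 3, so the block fits tumor 3 by itself. The log2 differences of calls lost under both settings were the same under the block as without tumor 3. That of Slc7a5 against OE normal lung was 1.46 under either. In the log2 differences of these calls the block is thus no check apart from that omission. The calls themselves differed. The block, but not that omission, ended those of Slc2a9 and Slc2a13 against WT lung (limma adjusted p = 0.0767 and 0.0731). It also called Slc3a2 lower than in OE normal lung (-0.82, adjusted p = 0.0423). The omission, but not the block, ended that of Slc6a20a against WT lung (adjusted p = 0.0636). Slc2a13 turned to 0.23 against OE normal lung by quantile normalization, and Slc43a2, uncalled in the report, ran over omissions of 1 library from -0.81 (without tumor 1) to 0.53 against OE normal lung and from -0.82 (without tumor 1) to 0.52 against WT lung. No member was called between OE normal and WT lung under any setting run. With unknown read totals, levels under 1 FPKM rest on few reads.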

Other observations

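Amino acids reach mTORC1 through sensors and the Rag GTPases. Of 25 such genes tested, 1 was higher and 4 were lower than in OE normal lung, and 1 was higher and 5 were lower than in WT lung, with median log2 differences of -0.14 and -0.09. Over all genes 13.1% were higher and 24.9% lower than in OE normal lung, and 15.0% and 23.2% than in WT lung. Gatsl3, an arginine sensor that holds mTORC1 back, had 1.94, 2.53 and 2.79 FPKM in the tumors, against 9.13 and 8.49 FPKM in OE normal lung and 11.1 and 9.42 FPKM in WT lung (limma adjusted p = 0.00108 and 0.000701). Among the sestrins, which include leucine sensors, Sesn1 fell, Sesn2 rose and Sesn3 was not called (adjusted p = 0.680 and 0.245). Sesn1 had 10.6, 3.49 and 4.197 FPKM in the tumors, against 15.9 and 17.6 FPKM in OE normal lung and 23.1 and 20.3 FPKM in WT lung (adjusted p = 0.0324 and 0.0156), and Sesn2 had 7.37, 8.28 and 8.29 FPKM in the tumors, against 4.75 and 5.28 FPKM in OE normal lung and 6.15 and 5.33 FPKM in WT lung (adjusted p = 0.0168 and 0.0498).

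Among carriers of like substrates outside the 9 families, 3 of 18 tested were higher and 6 lower than in OE normal lung. Against WT lung 3 were higher and 4 lower. Of all genes 13.1% were higher and 24.9% lower in the first comparison, and 15.0% and 23.2% in the second. The list had median log2 differences of -0.59 and -0.31, against -0.11 and -0.06 over all genes. Slc15a2, the peptide carrier PEPT2 of alveolar type 2 cells, had 51.3, 133 and 118 FPKM in the tumors, against 11.4 and 10.7 FPKM in OE normal lung and 8.34 and 16.8 FPKM in WT lung (limma adjusted p = 0.00424 and 0.00493). Alveolar type 2 markers were higher as well, and their part in this result was not tested. Slc29a1, a nucleoside carrier, had 20.4, 6.91 and 8.06 FPKM in the tumors, against 37.96 and 33.98 FPKM in OE normal lung and 47.1 and 38.01 FPKM in WT lung (adjusted p = 0.0240 and 0.0157).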
